A study of Mus musculus with 21 samples.

Results

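The ERK pathway output genes described here are 10 mouse genes whose transcripts are used as a readout of signalling through the ERK kinases. They are the dual-specificity phosphatases Dusp4, Dusp5 and Dusp6, the Sprouty genes Spry1, Spry2 and Spry4, the Spred genes Spred1 and Spred2, and the ETS transcription factors Etv4 and Etv5. They were taken by symbol from the deposited log2 expression table, which held 10 of the 10 among 20900 genes, and all 10 passed the filter on low values, as did 14666 genes in all. The cells were E14 embryonic stem cells, a mouse line of 129 strain, grown in medium with serum and the cytokine LIF, and every group shared that medium. Cells plated the day before received fresh medium with 1 µM BMH-21 or 1 µM CX-5461, both of which inhibit RNA polymerase I, the polymerase of the ribosomal RNA genes, for 2 h, 4 h or 8 h. Each of these 6 treated groups and the untreated 0 h control had 3 libraries of poly(A) RNA, 21 in all. The 0 h control served both inhibitors and no vehicle control taken at a matching time was analysed here, so time after the medium change and the inhibitor cannot be told apart. The labels do not say whether libraries of a group came from separate cultures, so p-values measure the spread between these libraries.

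The ERK kinases are the last of a cascade in which a growth factor receptor activates Ras, Ras activates RAF, RAF activates MEK and MEK activates ERK. In embryonic stem cells FGF4 made by the cells themselves is a main source of this signal, and ERK activity is known for moving these cells out of self-renewal. Many genes that ERK switches on encode proteins that switch the pathway off again, so their transcripts rise with the signal and limit it. Sprouty and Spred proteins act on the steps around Ras and RAF, DUSP4, DUSP5 and DUSP6 remove phosphate from MAP kinases, and ETV4 and ETV5 are transcription factors induced by FGF signalling.

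The libraries held 46604397 to 62812641 reads over the genes of the table, and the 10 genes had 260 to 23300 reads per library. Values are log2 of reads scaled to an effective library size set by the authors. These sizes differed from the totals of reads by factors of 0.832 to 1.375, and the highest factors (1.21, 1.375 and 1.209) belonged to BMH-21 at 8 h. Centring each library on its own median gene removed a shift of the treated groups against control of -0.08, -0.15 and -0.21 for BMH-21 at 2 h, 4 h and 8 h and of -0.15, -0.16 and 0.22 for CX-5461. Between BMH-21 and CX-5461 the shifts in order of time were 0.07, 0.01 and -0.43, all on the log2 scale. Differences are given as deposited, and the centred difference follows where it bears on the call. The summed level of 8 embryonic stem cell markers was between 12.31 and 12.49 (log2) in the control libraries, between 11.09 and 11.26 in BMH-21 at 8 h, and between 12.12 and 12.23 in CX-5461 at 8 h. In bulk RNA, fewer cells that express a gene and less of its RNA per cell cannot be told apart.

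**Figure D1:**
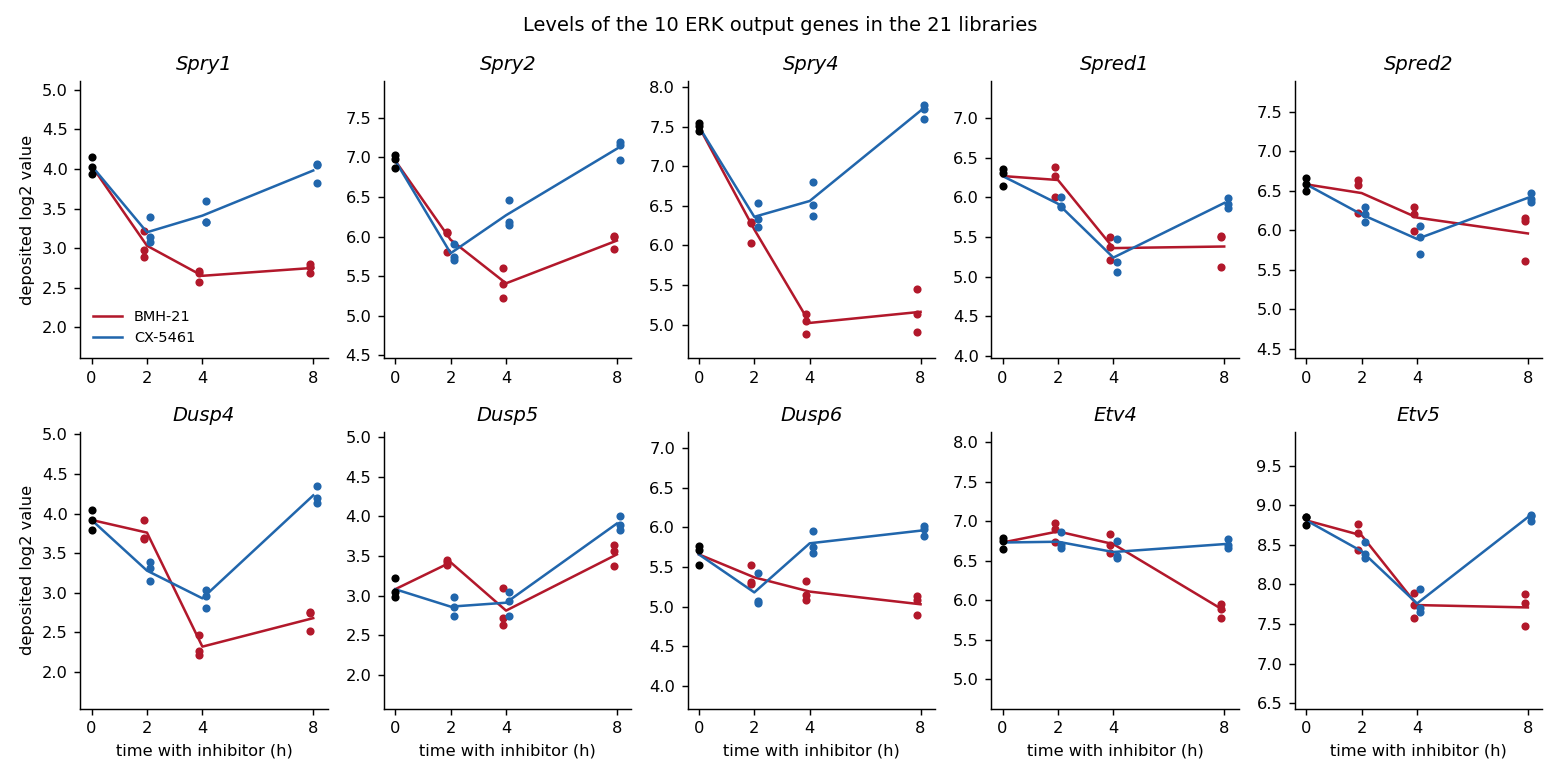
Expression of the 10 ERK pathway output genes in each of the 21 libraries. Each panel is a gene, the horizontal axis is time (0 h is the untreated control shared by both inhibitors), the vertical axis is the deposited log2 value, points are libraries and lines join the group means. In the Spry4 panel the 3 BMH-21 libraries at 8 h lie between 4.91 and 5.45 and the 3 CX-5461 libraries between 7.60 and 7.77.

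At 4 h 9 of the 10 transcripts were called lower than in untreated cells with BMH-21 and 7 with CX-5461, with Etv4 not called in either and Dusp5 and Dusp6 not called in CX-5461. At 8 h of BMH-21 9 were called lower and Dusp5 higher, while at 8 h of CX-5461 6 did not pass on the deposited scale. The test was limma's moderated linear model on the deposited values, with Benjamini-Hochberg adjustment over all 14666 genes and calls at an adjusted p under 0.05. With BMH-21, 4 of 10 genes were called at 2 h (1 higher and 3 lower), where 19.7% of all genes tested were called. At 4 h 9 of 10 were called, all lower, against 67.0% of all genes in either direction and 44.9% lower. At 8 h 10 of 10 were called, 1 higher and 9 lower, against 81.5% in either direction and 56.9% lower. With CX-5461, 8 of 10 were called at 2 h, all lower, against 27.9% of all genes called and 20.5% lower. At 4 h 7 of 10 were called, all lower, against 70.9% called and 51.2% lower. The share called in either direction was thus near that of all genes. At 8 h 4 of 10 were called, 3 higher and 1 lower, against 49.4% called, 35.1% higher and 14.3% lower. After centring, the CX-5461 count at 8 h became 6 of 10, 1 higher and 5 lower, against 74.0% of all genes called, and with median-ratio size factors it was 3 higher and 4 lower, where 10332 of 14666 genes were called. The other centred counts were 2 higher and 5 lower at 2 h of BMH-21 (36.0% of all genes called), 1 and 8 at 4 h (73.6%), and 1 and 9 at 8 h. For CX-5461 they were 1 and 8 at 2 h (33.6%) and 1 and 7 at 4 h (74.2%).

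The median difference of the 10 genes showed the same course. In order of time it took the values -0.17, -0.99 and -0.95 (log2) for BMH-21, where the median over all genes was -0.07, -0.21 and -0.40. For CX-5461 the values were -0.44, -0.69 and 0.09, where the median over all genes was -0.18, -0.28 and 0.11. The 6 comparisons share the same 3 control libraries.

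On the deposited scale the Sprouty genes were the members called lower at 2 h of BMH-21. Centring added Dusp6 (-0.21) and Etv5 (-0.12) to the members called lower at that time. All 3 Sprouty genes fell at 2 h and 4 h of both inhibitors. Sprouty proteins are cytoplasmic inhibitors of signalling from growth factor receptors to Ras and ERK. Spry4 was at 7.55, 7.51 and 7.44 in the control libraries. It was at 6.03, 6.29 and 6.28 in BMH-21 at 2 h, at 5.13, 5.04 and 4.88 at 4 h, and at 5.45, 4.91 and 5.13 at 8 h. No BMH-21 library reached the lowest control library at any time. The differences from control in order of time were -1.30, -2.48 and -2.33 (standard error 0.11 each), which is 5.59-fold lower at 4 h (limma adjusted p = 2.2e-43). In CX-5461 the Spry4 libraries were at 6.54, 6.33 and 6.23 at 2 h, at 6.37, 6.80 and 6.51 at 4 h, and at 7.72, 7.60 and 7.77 at 8 h. The libraries of 2 h and 4 h were all below control and those of 8 h all above it, by differences of -1.13, -0.94 and 0.20. The value at 8 h did not pass (limma adjusted p = 0.14), its 95% interval ran from -0.02 to 0.42, and after centring it was -0.02.

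Spry2 began at 6.98, 7.03 and 6.87 in control. In BMH-21 its libraries were at 5.80, 6.06 and 6.04 at 2 h, 5.60, 5.23 and 5.40 at 4 h, and 6.01, 5.84 and 6.00 at 8 h, all below control. The differences from control were -0.99, -1.55 and -1.01 (standard error 0.11 each), and the value at 4 h was 2.92-fold lower (limma adjusted p = 1.7e-26). Spry2 was lowest at 4 h and higher again at 8 h, by 0.54 against 4 h (limma adjusted p = 1.2e-05). In CX-5461 its lowest libraries were those of 2 h, at 5.91, 5.71 and 5.74. The libraries then stood at 6.15, 6.46 and 6.19 at 4 h and at 7.20, 6.97 and 7.16 at 8 h, where they overlapped the control. The CX-5461 differences were -1.17, -0.69 and 0.15, and the last did not pass (limma adjusted p = 0.25) and was -0.06 after centring.

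Spry1, expressed at a lower level, followed a similar course. It was at 4.15, 4.03 and 3.94 in control, and in BMH-21 at 2.98, 3.22 and 2.89 at 2 h, 2.71, 2.57 and 2.68 at 4 h, and 2.76, 2.69 and 2.80 at 8 h. The differences were -1.01, -1.39 and -1.29 (standard error 0.12 each). The groups did not overlap with control at any time, and no rise from 4 h to 8 h was called (0.10, 95% interval -0.15 to 0.34). In CX-5461 Spry1 was at 3.39, 3.08 and 3.14 at 2 h, 3.33, 3.59 and 3.33 at 4 h, and 4.06, 3.82 and 4.05 at 8 h. The differences were -0.84, -0.63 and -0.06, and the value at 8 h, not called as deposited (limma adjusted p = 0.7), was -0.28 and called after centring.

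The Spred genes encode Sprouty-related proteins that bind neurofibromin, the product of Nf1, and bring it to Ras at the membrane. Both were lower at 4 h of either inhibitor. Spred1 was at 6.31, 6.36 and 6.15 in control and at 6.00, 6.38 and 6.27 in BMH-21 at 2 h, where the groups overlapped. It was at 5.50, 5.37 and 5.21 at 4 h and at 5.51, 5.12 and 5.50 at 8 h, all below control, with differences of -0.91 and -0.89. The difference at 2 h was -0.06 (limma adjusted p = 0.8) and 0.02 after centring. In CX-5461 Spred1 was at 6.00, 5.88 and 5.89 at 2 h, 5.06, 5.47 and 5.18 at 4 h, and 5.99, 5.87 and 5.92 at 8 h. Its differences were -0.35, -1.04 and -0.35, and Spred1 was the member called lower at 8 h of CX-5461 (limma adjusted p = 0.0064), where centring gave -0.56. The call at 2 h was lost in 4 of the 6 fits that left out a control or CX-5461 library, whose values ran from -0.41 to -0.31.

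Spred2 moved less. Its control libraries were at 6.59, 6.66 and 6.49, and its BMH-21 libraries at 6.22, 6.64 and 6.57 at 2 h, 6.30, 6.20 and 5.99 at 4 h, and 6.15, 5.61 and 6.12 at 8 h. The differences were -0.10, -0.41 and -0.62, and those at 4 h and 8 h passed. In CX-5461 it was at 6.30, 6.20 and 6.11 at 2 h, 5.70, 6.05 and 5.92 at 4 h, and 6.47, 6.36 and 6.40 at 8 h. The differences were -0.37, -0.69 and -0.17, with the first 2 called. The call at 2 h was lost without control library 2 or without CX-5461 library 3 (-0.33 in both). At 8 h the value of -0.17 did not pass as deposited (limma adjusted p = 0.22) and was -0.38 and called after centring.

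The 3 phosphatase genes did not follow each other. DUSP6 acts on ERK in the cytoplasm, DUSP5 on ERK in the nucleus, and DUSP4 is a nuclear phosphatase of ERK and other MAP kinases. Dusp4 was at 4.04, 3.92 and 3.79 in control and at 3.68, 3.92 and 3.69 in BMH-21 at 2 h, where the groups overlapped. It was at 2.47, 2.22 and 2.27 at 4 h and at 2.76, 2.52 and 2.75 at 8 h, all below control. The differences were -0.15, -1.59 and -1.24 (standard error 0.12 each), and the value at 4 h was 3.02-fold lower (limma adjusted p = 4.3e-24). In CX-5461 Dusp4 was at 3.39, 3.15 and 3.31 at 2 h, 2.81, 2.96 and 3.03 at 4 h, and 4.35, 4.13 and 4.20 at 8 h. The first 2 groups lay below control and the last above it, with differences of -0.63, -0.98 and 0.31. The rise at 8 h (limma adjusted p = 0.026) was 0.09 and not called after centring, and its call was lost in 4 of 6 fits without a library, with values of 0.25 to 0.37.

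Dusp6 was at 5.71, 5.76 and 5.52 in control. It was at 5.31, 5.53 and 5.28 in BMH-21 at 2 h, 5.33, 5.15 and 5.08 at 4 h, and 5.13, 4.90 and 5.08 at 8 h. The differences were -0.29, -0.47 and -0.63, and that at 2 h missed the threshold (limma adjusted p = 0.056) and was called at -0.21 after centring. In CX-5461 Dusp6 was at 5.43, 5.07 and 5.04 at 2 h, 5.68, 5.96 and 5.75 at 4 h, and 6.02, 5.89 and 5.98 at 8 h. It fell at 2 h (-0.48, limma adjusted p = 4.0e-04), did not pass at 4 h (0.14, limma adjusted p = 0.26, though 0.30 and called after centring), and rose at 8 h (0.30, limma adjusted p = 0.018). The rise at 8 h was 0.09 and not called after centring, and its call was lost in 3 of 6 fits without a library, with values of 0.23 to 0.35.

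Dusp5 was the member that rose with both inhibitors at 8 h under every scaling compared. Its control libraries were at 3.05, 3.22 and 2.98, and its BMH-21 libraries at 3.39, 3.45 and 3.43 at 2 h, 3.09, 2.72 and 2.63 at 4 h, and 3.64, 3.37 and 3.56 at 8 h. The libraries of 2 h and 8 h all lay above control and those of 4 h overlapped it. The differences were 0.34, -0.27 and 0.44 (standard error 0.12 each), and the value at 8 h was 0.65 after centring and 0.80 with median-ratio size factors. The call at 2 h (limma adjusted p = 0.037) was lost in 5 of 6 fits that left out a library (0.29 to 0.41). The call at 4 h (limma adjusted p = 0.048) was lost in 4 of 6, with values of -0.41 to -0.18, and after centring (-0.12). In CX-5461 Dusp5 was at 2.98, 2.85 and 2.74 at 2 h, 2.74, 3.05 and 2.93 at 4 h, and 4.01, 3.83 and 3.89 at 8 h. The differences were -0.22, -0.18 and 0.83, and the last was called at 1.77-fold higher (limma adjusted p = 5.5e-09), and at 0.61 after centring.

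Because Dusp5 differed from the other members, its promoter is shown beside that of Spry2, a member that fell. Promoter windows of RefSeq genes, 250 bases before to 50 bases after the start site on build GRCm38.p6, were matched to 7 of the 10 members, in 8 windows. Dusp4, Spry4 and Etv4 were not matched. The Dusp5 window is chr19:53528895-53529194 on the plus strand and the Spry2 window is chr14:105896770-105897069 on the minus strand, each spanning the start of its gene. Both are written 5′ to 3′ on the strand of the gene, and capitals mark matches to the CArG box, the motif that serum response factor binds.
Dusp5: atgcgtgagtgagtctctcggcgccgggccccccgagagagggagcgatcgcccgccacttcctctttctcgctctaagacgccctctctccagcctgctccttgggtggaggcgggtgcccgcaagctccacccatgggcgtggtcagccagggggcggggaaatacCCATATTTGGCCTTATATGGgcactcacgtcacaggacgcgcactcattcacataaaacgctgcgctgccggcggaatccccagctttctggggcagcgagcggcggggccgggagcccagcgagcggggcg
Spry2: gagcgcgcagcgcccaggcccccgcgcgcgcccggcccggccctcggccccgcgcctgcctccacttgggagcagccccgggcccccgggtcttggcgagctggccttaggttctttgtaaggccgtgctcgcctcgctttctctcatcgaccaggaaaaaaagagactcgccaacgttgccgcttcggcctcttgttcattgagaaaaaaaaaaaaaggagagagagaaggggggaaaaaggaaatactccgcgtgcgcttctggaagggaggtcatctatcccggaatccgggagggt
The Dusp5 window held 2 adjacent CArG boxes, whose first bases lay 82 and 72 bases before the start site. Each was found on both strands, since the motif is its own reverse complement. A CArG box was found in 1 of 8 member windows and in 1.63% of the 32817 windows of the table. The ETS motif CCGGAAGT was in 0 of 8 member windows and 3.89% of all windows. The CIC motif was searched only as TGAATGAA and TGAATGGA, which were in 0 and 2.47%. Other forms of the CIC motif were not searched, so this 0 does not cover them. The cAMP response element TGACGTCA was in 0 and 1.79%, and the AP-1 motif TGANTCA in 0 and 7.81%. Both strands were searched, and none of these motifs contains another. A match is a description of letters in the window, and a window without one says only that these letters are not in it.

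ETV4 and ETV5 are closely related transcription factors, and their transcripts moved at different times. Etv5 was at 8.85, 8.85 and 8.75 in control. In BMH-21 it was at 8.43, 8.77 and 8.65 at 2 h, 7.89, 7.74 and 7.58 at 4 h, and 7.88, 7.48 and 7.77 at 8 h, with the later groups below control. The differences were -0.20, -1.07 and -1.10 (standard error 0.11 each), and the value at 4 h was 2.11-fold lower (limma adjusted p = 2.9e-17). That at 2 h did not pass as deposited (limma adjusted p = 0.2) and was -0.12 and called after centring. In CX-5461 Etv5 was at 8.54, 8.39 and 8.34 at 2 h, 7.65, 7.94 and 7.70 at 4 h, and 8.88, 8.80 and 8.86 at 8 h. It fell by 0.39 at 2 h and by 1.05 at 4 h on the log2 scale and was back in the range of control at 8 h (0.03, 95% interval -0.17 to 0.24). After centring the value at 8 h was -0.18 and called, with the opposite sign.

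Etv4 was at 6.79, 6.75 and 6.65 in control and at 6.74, 6.98 and 6.90 in BMH-21 at 2 h. It was at 6.84, 6.60 and 6.70 at 4 h, and all of these overlapped the control. Its libraries at 8 h of BMH-21 were at 5.95, 5.78 and 5.89, all below control, with a difference of -0.86 (limma adjusted p = 1.2e-12). The earlier BMH-21 differences were 0.14 and -0.02, and after centring they were 0.22 and 0.13 and called. In CX-5461 its libraries were at 6.86, 6.66 and 6.70 at 2 h, 6.53, 6.75 and 6.56 at 4 h, and 6.78, 6.66 and 6.70 at 8 h. The differences of 0.01, -0.12 and -0.01 did not pass at any time as deposited, with 95% intervals that together ran from -0.33 to 0.22. Centring gave 0.16, 0.04 and -0.23, of which the first and the last were called.

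**Figure D2:**
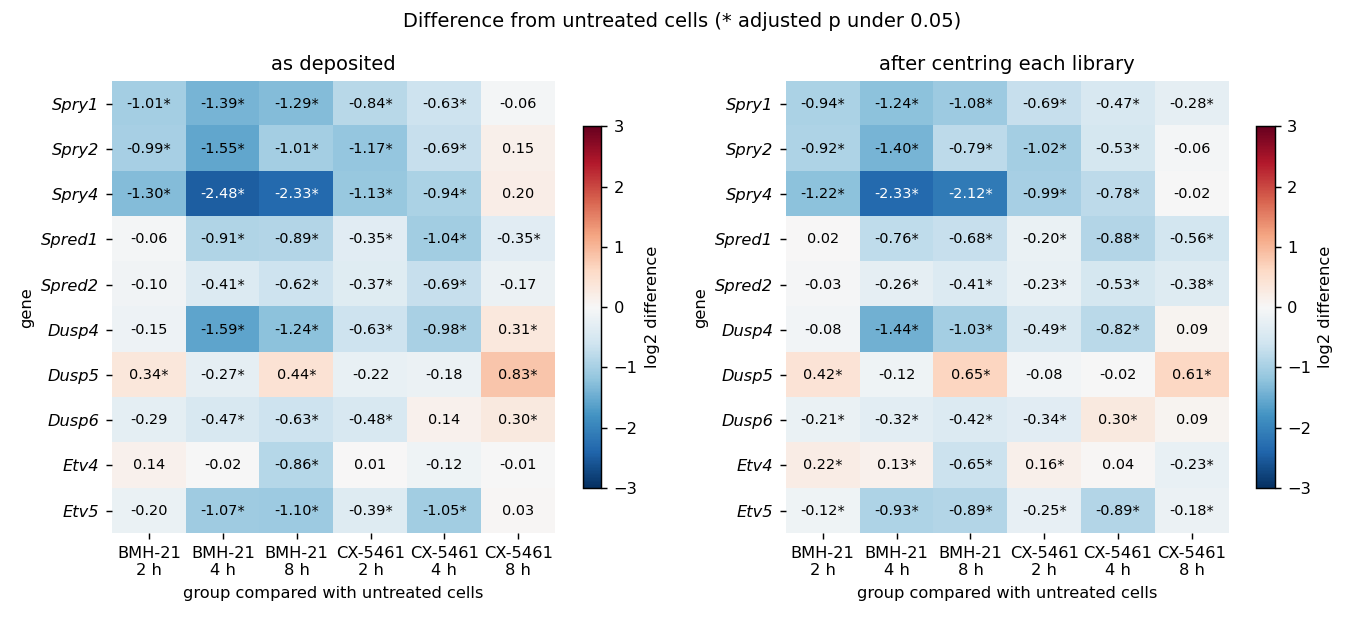
Log2 difference from the untreated control for each member at each time, as deposited on the left and after centring each library on the right. Rows are genes, columns are the 6 treated groups, colour and printed values are the log2 difference, and asterisks mark an adjusted p under 0.05 by limma. Spry4 is darkest at 4 h and 8 h of BMH-21 (-2.48 and -2.33 as deposited), and the CX-5461 column of 8 h runs from -0.35 to 0.83.

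The inhibitors were then set against each other at the same time, a comparison that does not use the control libraries. At 2 h 2 of 10 members were called, Dusp4 and Dusp5, both higher in BMH-21, against 3.99% of all genes called. Their differences were 0.48 and 0.56 (limma adjusted p = 0.0067 and 0.001). After centring 3 were called higher and 2 lower (Spry1 and Spry4, each -0.24), against 15.4% of all genes called. The Dusp4 call was lost without library 2 of BMH-21 at 2 h (0.40) or without library 2 of CX-5461 at 2 h (0.41). At 4 h 5 of 10 were called, all lower in BMH-21, against 17.8% of all genes called and 8.49% lower. These were the 3 Sprouty genes, Dusp4 and Dusp6. Spry4 differed by -1.55, Spry2 by -0.85, Spry1 by -0.76, and Dusp4 and Dusp6 by -0.61 each (standard errors 0.11 to 0.12), and the centred differences were within 0.01 of these. The other 5 were not called at 4 h as deposited, and after centring Spred2 (0.26) and Etv4 (0.09) were called higher, where 45.8% of all genes were called. Their 95% intervals were -0.10 to 0.35 for Spred1, 0.05 to 0.50 for Spred2, -0.11 to 0.31 for Etv4, -0.23 to 0.19 for Etv5 and -0.34 to 0.15 for Dusp5.

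At 8 h 10 of 10 members were called lower in BMH-21 than in CX-5461, but so were 67.2% of all genes, with 79.2% called in either direction. After centring 8 of 10 were called, all lower, against 40.6% of all genes lower and 71.7% called. Spry4 differed by -2.53 (95% interval -2.75 to -2.31), which is 5.78-fold lower (limma adjusted p = 6.7e-43), and by -2.10 after centring. Dusp4 differed by -1.55 (centred -1.12), Spry1 by -1.23 (centred -0.80), Spry2 by -1.16 (centred -0.73) and Etv5 by -1.14 (centred -0.71). Dusp6 differed by -0.93 (centred -0.50) and Etv4 by -0.84 (centred -0.42). The calls of Spred2 (-0.45, centred -0.02) and Dusp5 (-0.38, centred 0.04) were lost after centring. Spred1 (-0.55) was still called after centring (-0.12) and lost its call with median-ratio size factors (-0.07). Without library 2 of BMH-21 at 8 h the Spred2 difference was -0.28 and still called. In order of time the median of the 10 differences took the values 0.20, -0.35 and -1.03, where the median over all genes was 0.09, 0.06 and -0.48.

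**Figure D3:**
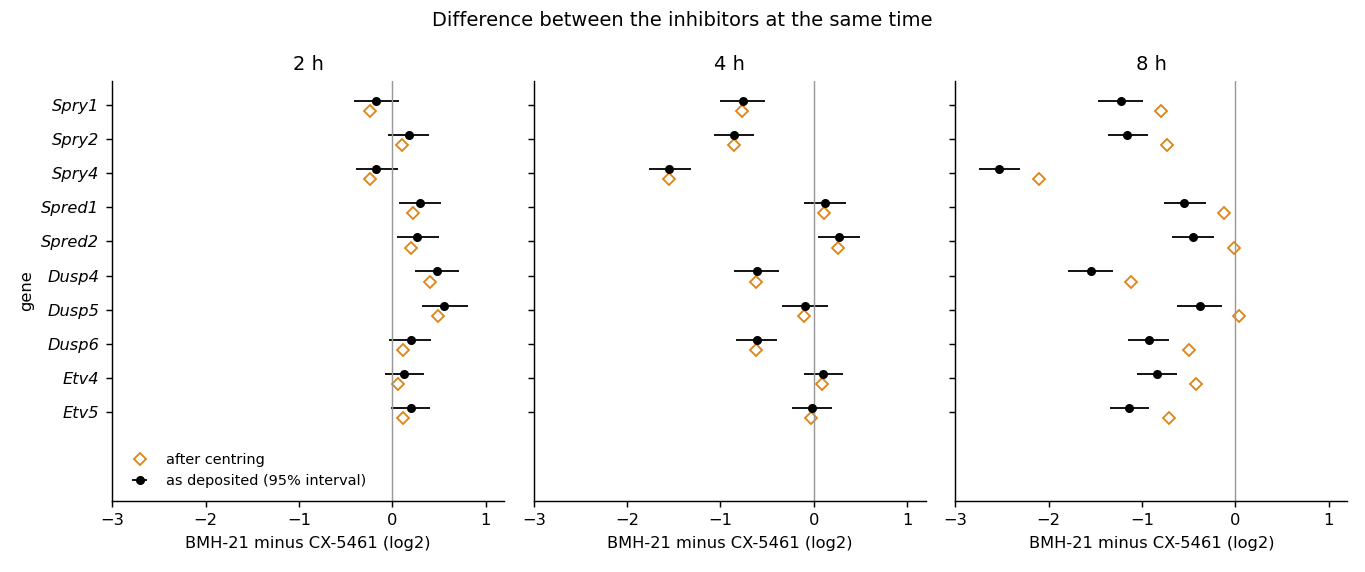
BMH-21 minus CX-5461 for each member at 2 h, 4 h and 8 h. The horizontal axis is the log2 difference, filled points are as deposited with 95% intervals and open points are after centring. At 8 h Spry4 lies at -2.53 as deposited and -2.10 after centring, while Dusp5 and Spred2 move to 0.04 and -0.02 on centring.

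Changes between times were also compared within each inhibitor. From 2 h to 4 h of BMH-21, 8 of 10 fell, against 55.6% of all genes called and 34.8% lower. The falls were largest in Dusp4 (-1.44) and Spry4 (-1.18), and those of Spry1 (-0.38) and Spred2 (-0.31) were lost without library 2 of BMH-21 at 2 h (-0.28 and -0.23). The Spred2 call was also lost without library 3 of BMH-21 at 2 h (-0.26) or at 4 h (-0.22). From 4 h to 8 h of BMH-21 4 were called, against 56.4% of all genes. Dusp5 (0.71), Spry2 (0.54) and Dusp4 (0.35) rose and Etv4 fell (-0.84), and the other 6 lay between -0.21 and 0.15 and did not pass. With median-ratio size factors 7 were called higher and 1 lower in this interval, where 5380 of 14666 genes were called higher and 4770 lower. From 2 h to 4 h of CX-5461 6 of 10 were called, against 47.5% of all genes. Dusp6 (0.62) and Spry2 (0.48) rose, and Spred1 (-0.69), Etv5 (-0.66), Dusp4 (-0.35) and Spred2 (-0.31) fell. After centring 4 were called higher and 5 lower, against 67.0% of all genes. The Dusp4 and Spred2 calls were each lost without library 1 of CX-5461 at 2 h (-0.30 and -0.26) or at 4 h (-0.29 and -0.22).

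From 4 h to 8 h of CX-5461 8 of 10 members rose, against 58.8% of all genes called higher and 63.7% called in either direction. Dusp4 rose by 1.29, Spry4 by 1.13, Etv5 by 1.09, Dusp5 by 1.00, Spry2 by 0.84, Spred1 by 0.69, Spry1 by 0.56 and Spred2 by 0.52. After centring 7 were called higher and 2 lower, against 25.8% of all genes higher and 32.0% lower. The centred rises were 0.92 for Dusp4, 0.76 for Spry4, 0.71 for Etv5, 0.63 for Dusp5, 0.47 for Spry2, 0.31 for Spred1 and 0.19 for Spry1, and the Spred2 call was lost (0.15). Dusp6 and Etv4, not called as deposited (0.17 and 0.10), were -0.21 and -0.27 and called lower after centring. The change from 4 h to 8 h itself differed between the inhibitors in 7 of 10 members, all lower in BMH-21. Of all genes, 69.4% were called and 61.4% were lower, so the share of members called was near that of all genes. After centring 6 were called, all lower, against 60.2% of all genes called. With median-ratio size factors 4 were called lower and 3 higher, where 4044 of 14666 genes were called lower and 4438 higher, so the direction of this difference depended on the scaling in Dusp5, Dusp6 and Spry2.

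The 10 genes were not at 1 level in untreated cells. Per kilobase of exon (union of exons, GENCODE M21), Etv5 was highest at 6.78 and Spry2 next at 5.90 on the log2 scale. Spry4 (5.25) and Etv4 (5.09) followed, then Spred2 (4.37), Dusp6 (4.01) and Spred1 (3.51). Spry1 (2.50) and Dusp4 (2.46) did not differ beyond their spread, with SDs of 0.10 and 0.12 over the 3 libraries, and Dusp5 was lowest at 1.78. The SDs of the 10 genes were 0.06 to 0.12, and each other step in this order was larger than the SDs of its neighbours. The order of control levels was not the order of the changes: Spry4 and Etv4 were neighbours in level, with differences of -2.48 and -0.02 at 4 h of BMH-21.

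Across the 21 libraries the members formed no single pattern. Pearson correlations of log2 values are given as a description only, since the libraries share controls, group structure and scaling. Spry1 and Spry4 were closest to each other (r = 0.966), and Etv5 was close to Dusp4 (0.942) and Spred1 (0.931). Dusp5 and Etv4 stood farthest apart, at -0.172. The closest gene to each member among 13683 genes was found the same way. It was Bcl6b for Spry4 (0.986), Sox2, a stem cell transcription factor, for Spry1 (0.972), Csrnp1 for Spry2 (0.984), and Trim2 for Etv5 (0.994), and these 4 were also the closest after centring (0.979, 0.957, 0.974 and 0.995). It was Wnk3 for Spred2 (0.983 and 0.966 after centring). For Dusp4 (March9, 0.980), Dusp5 (Zfp667, 0.945), Dusp6 (Fam149b, 0.946), Spred1 (Il6st, 0.986) and Etv4 (Tuba1a, 0.981) another gene was closest after centring.

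The upstream part of the pathway was read from lists of its components. The transcript of Fgf4, the gene of a ligand that embryonic stem cells make, fell with both inhibitors. Fgf4 was at 7.87, 7.89 and 7.69 in control, at 5.98, 5.71 and 5.92 in BMH-21 at 8 h and at 7.55, 7.34 and 7.46 in CX-5461 at 8 h, all below control. Its differences were -0.73, -1.70 and -1.94 in BMH-21 and -0.67, -0.76 and -0.36 in CX-5461, each called by limma (adjusted p of 0.0026 for the last). Of 9 FGF ligands and receptors tested, 2 were higher and 7 lower at 8 h of BMH-21, and 4 were higher and 2 lower at 8 h of CX-5461, where 81.5% and 49.4% of all genes were called. Fgf17, an FGF ligand, differed by -3.94 and -1.22, Fgf15, another, by -3.54 in BMH-21, and Fgfr4, an FGF receptor, by 3.23 and 2.21 in BMH-21 and CX-5461 at 8 h. The FGF list had a median difference of -0.86 in BMH-21 and 0.18 in CX-5461 at 8 h, beside -0.40 and 0.11 over all genes. Centred counts for this list were 2 higher and 7 lower in BMH-21 and 2 higher and 2 lower in CX-5461. With centring 12407 and 10851 of all 14666 genes were called.

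Components between receptor and ERK were counted in the same way. Of all genes, 81.5% were called at 8 h of BMH-21 and 49.4% at 8 h of CX-5461, and with centring 12407 and 10851 of 14666. Of 11 adaptors and Ras activators, 2 were higher and 8 lower at 8 h of BMH-21, and 2 higher and 1 lower at 8 h of CX-5461. Centred counts were 2 higher and 6 lower with each inhibitor. Sos2, a Ras activator, differed by 1.07 and 1.00, and Frs3, an FGF receptor adaptor, by 1.14 in CX-5461. Of 5 genes that switch Ras off, 2 were higher and 3 lower in BMH-21 and 2 higher and 0 lower in CX-5461 at 8 h. Centred counts were 2 and 2 in BMH-21 and 1 and 1 in CX-5461. Rasa3 differed by 1.47 and 1.57, and Nf1, whose product Spred proteins bind, by 1.00 and 0.32. The Nf1 value in CX-5461 was 0.11 and not called after centring. Of 8 kinases and scaffolds of the cascade, 1 was higher and 6 lower in BMH-21, and 2 were higher and 2 lower in CX-5461. The median difference of these 8 was -0.85 and -0.17. Their centred counts were 2 higher and 6 lower with each inhibitor, so the CX-5461 count depended on the scaling.

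Mapk3, the gene of the kinase ERK1, was among these 8. It was at 6.66, 6.61 and 6.48 in control, at 5.29, 5.11 and 5.24 in BMH-21 at 8 h and at 6.25, 6.23 and 6.24 in CX-5461 at 8 h. Both treated groups lay below control, with differences of -1.37 and -0.35. Braf differed by -1.09 in BMH-21, and Ksr1, a scaffold, and Araf by 0.80 and 0.35 in CX-5461. These are transcript levels, and phosphorylated ERK was not measured in these data.

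Other genes that ERK is known to induce changed in both directions. Of 14 tested, 3 were higher and 9 lower at 8 h of BMH-21, and 6 were higher and 4 lower at 8 h of CX-5461, beside the 81.5% and 49.4% of all genes called. Their median difference was -0.42 and 0.18, and that over all genes -0.40 and 0.11. Centred counts were 4 higher and 9 lower in BMH-21 and 5 higher and 6 lower in CX-5461. With centring 12407 and 10851 of all 14666 genes were called. Spred3, another Spred gene, was at 3.13, 3.20 and 3.18 in control, at 1.92, 1.31 and 1.85 in BMH-21 at 8 h and at 3.23, 3.14 and 3.02 in CX-5461 at 8 h. It differed by -1.35 and -1.48 at 4 h and 8 h of BMH-21, and by -1.19 at 4 h of CX-5461, while its -0.04 at 8 h of CX-5461 did not pass. Etv1, of the same ETS subfamily as Etv4 and Etv5, fell by 1.66 on the log2 scale at 8 h of BMH-21 and by 0.81 at 8 h of CX-5461. Il17rd, whose product inhibits FGF signalling, differed by -0.60 and 0.30, the latter 0.09 after centring, and Epha4, an ephrin receptor, by -0.83 and -0.40. Fosl1, an AP-1 gene, rose at every time, from 6 to 14 reads per control library to 628 to 710 reads in BMH-21 at 4 h, with differences of 3.90, 5.78 and 5.16 in BMH-21 and 3.82, 5.19 and 3.66 in CX-5461. Phlda1 rose at 8 h by 2.08 and 1.95. Ccnd1, the gene of cyclin D1, fell by 1.87 on the log2 scale in BMH-21 at 8 h and by 0.30 in CX-5461. Egr1, an early response gene, was at 7.19, 7.18 and 7.20 in control. It was called higher at 2 h and 4 h of BMH-21 (0.39 and 0.47) and at 4 h of CX-5461 (0.24). Its CX-5461 libraries at 2 h, at 7.63, 7.39 and 7.32, also all lay above control. At 8 h its differences of -0.15 and 0.15 did not pass, and they were 0.06 and -0.07 after centring. Spry3, another Sprouty gene, was not analysed here. Of 10 genes of ERK substrates, 3 were higher and 6 lower in BMH-21 and 4 higher and 0 lower in CX-5461 at 8 h. Their medians were -0.47 and 0.23. Centred counts were 4 higher and 6 lower in BMH-21 and 4 higher and 4 lower in CX-5461, so the CX-5461 count depended on the scaling. Ets1, a transcription factor that ERK phosphorylates, differed by 3.74 and 1.78, Rps6ka2, a kinase that ERK activates, by 0.84 in BMH-21, and Elk3 by 0.72 in CX-5461.

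**Figure D4:**
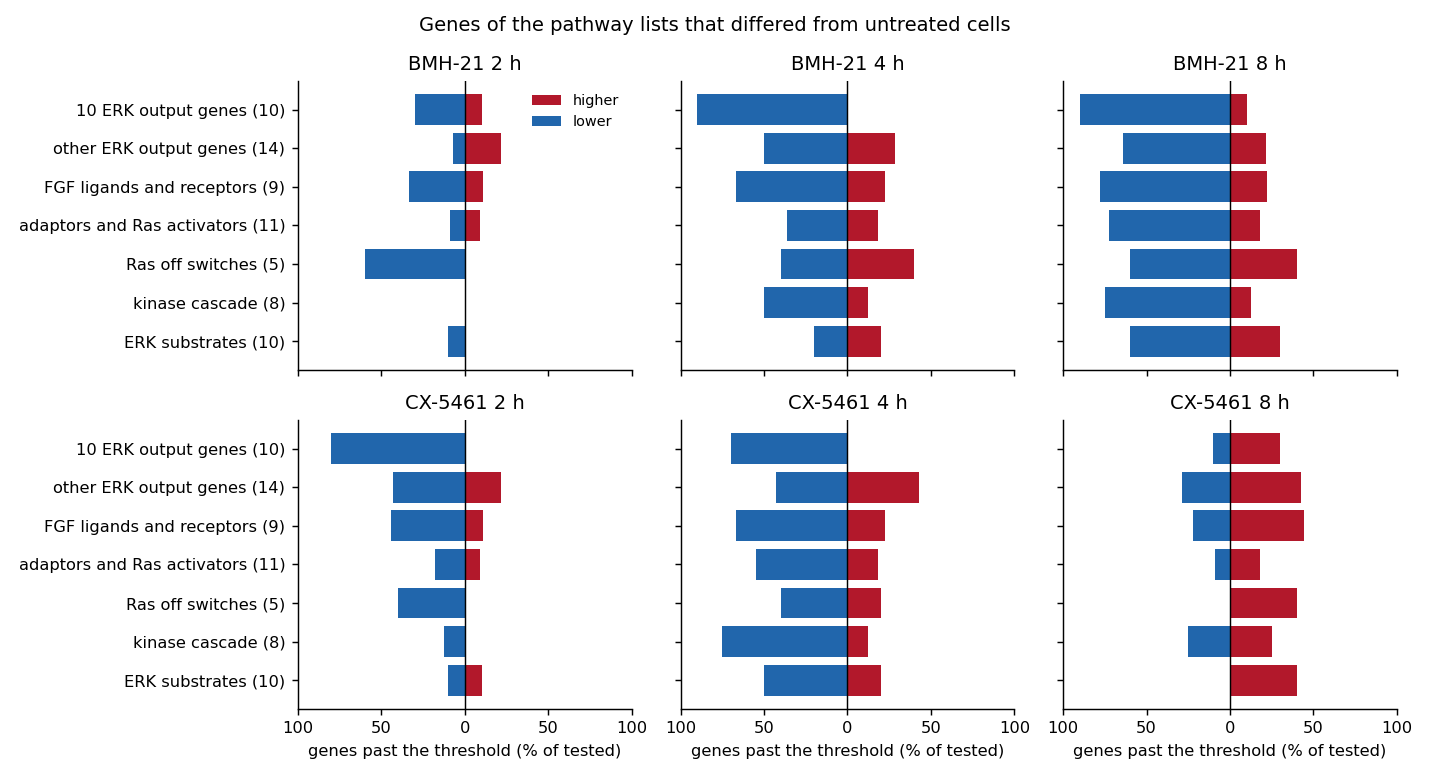
Share of the genes of each list called different from control on the deposited scale, with 1 panel per inhibitor and time. The horizontal axis is the percentage of the genes tested (number in brackets), red bars to the right are genes called higher and blue bars to the left genes called lower. At 4 h of BMH-21 the bar of the members shows 9 of 10 lower and 0 higher.

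Markers of cell state were described over the same groups. All 8 stem cell markers tested were called lower at 4 h and at 8 h of BMH-21 and at 4 h of CX-5461. Of all genes, 44.9%, 56.9% and 51.2% were called lower in these comparisons. At 8 h of CX-5461 6 markers were lower and 1 higher, against 14.3% of all genes lower and 35.1% higher. The summed level of the 8 markers was between 11.41 and 11.63 at 4 h of BMH-21 and between 11.44 and 11.71 at 4 h of CX-5461. Between the inhibitors at 4 h 3 of these 8 markers were called lower in BMH-21, against 8.49% of all genes. They were Sox2 (-0.66), Nanog (-0.53) and Zfp42 (-0.34). The other 5 were not called, with values of -0.10 to 0.19. The summed level of 6 fibroblast markers was between 5.01 and 5.20 in control, between 5.75 and 6.04 at 4 h of BMH-21 and between 5.54 and 5.81 at 8 h, and between 5.30 and 5.44 and between 5.54 and 5.60 at those times of CX-5461. Of these Col1a1 and Pdgfra rose in BMH-21 at 8 h, by 1.86 and 2.01, Thy1 fell by 1.41, Col1a2 did not pass (0.07, limma adjusted p = 0.77), and Postn was at 0 reads in a control library. The summed level of 5 endoderm markers was between 2.68 and 3.08 in control, 2.82 and 3.00 in BMH-21 at 8 h and 3.15 and 3.17 in CX-5461 at 8 h. For 5 neural markers it was between 7.83 and 7.96 in control, 6.77 and 6.97 in BMH-21 at 8 h and 8.13 and 8.20 in CX-5461 at 8 h. Most of the neural sum is Tubb3, at a mean of 7.42 in control, beside Nes (5.51), Map2 (3.38), Pax6 (3.26) and Sox1 (1.38). Of these 5, 0 were called higher and 3 lower at 8 h of BMH-21, and 1 higher and 1 lower at 8 h of CX-5461. Of all genes, 81.5% and 49.4% were called at those times. The part of these cell types in the differences of the members was not tested.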

How the data were processed

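Poly(A) RNA from 21 libraries of E14 cells was sequenced with a directional kit, per the labels. The authors deposited 1 table of log2 expression values for 20900 genes. The submitters' processing notes name Trim Galore 0.5.0, TopHat2 2.1.1, R 4.0.5, DESeq2 1.30.1, edgeR 3.32.1, limma 3.46.0 and build mm10. The counting program, annotation and filters are not given in the sources used here. The log2 values turned out to be whole reads plus 0.5 over an effective library size, with 100.0% of values whole to within 0.001 reads. The origin of the factors in these sizes is not given, and the factors, not only depth, set the levels compared.

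Groups came from the labels. limma 3.58.1 (R 4.3.3) estimated 1 mean for each of the 7 groups from the log2 values of all libraries together, using a mean-variance trend and two-sided tests, in 14 comparisons. Genes with log2 above 0 in at least 3 libraries were tested (14666), and 6234 were set aside. Benjamini-Hochberg adjustment ran over all genes tested within each comparison, with calls under 0.05. The prior carried 111.5 degrees of freedom and the replicates 14, and 0 members had a variance over 2 times the moderated one. Each library was counted as a replicate. Libraries of a group differed by more than sampling noise (chi-square per degree of freedom 2.58 to 26.0), which does not show whether they came from separate cultures. The fit was tested on simulated data. Alternatives were centring, median-ratio factors, no filter, an offset of 5 reads, no trend, voom weights, a replicate block, only the groups compared and leaving out each library.

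The members and lists were chosen with earlier results of these data known. The text names every member, the 2 largest called changes of each list at 8 h of each inhibitor, Egr1, Fosl1, Phlda1, Ccnd1, Fgf4 and Mapk3, and the gene most like each member, except that some genes the rule names are not reported here. Spred3, Etv1, Il17rd, Epha4, Sox2, Nanog, Zfp42, Col1a1, Col1a2, Pdgfra, Thy1, Postn, Tubb3, Nes, Map2, Pax6 and Sox1 were named after their values were seen. RefSeq promoter windows were used for letters only.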

Additional observations from a re-analysis of the deposited data

Results flagged for a closer look

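For 7 of the 10 members the change from 4 h to 8 h differed between the inhibitors by limma's test of that difference. Values are BMH-21 minus CX-5461 on the log2 scale. Of all genes, 69.4% were called and 61.4% were called lower, so the share of members called was near that of all genes. Sprouty and Spred genes were among the 7 members. Spry4 differed by -0.99, since it changed by 0.15 in BMH-21 and by 1.13 in CX-5461, and Spry1 by -0.47. Spred1 differed by -0.67 and Spred2 by -0.72. Of the phosphatases Dusp4 differed by -0.94, with rises of 0.35 in BMH-21 and 1.29 in CX-5461. Etv5 differed by -1.11, from -0.03 in BMH-21 and 1.09 in CX-5461, and Etv4 by -0.94, from -0.84 and 0.10. After centring the values were -0.55 for Spry4, -0.03 for Spry1, -0.23 for Spred1, -0.29 for Spred2, -0.50 for Dusp4, -0.68 for Etv5 and -0.51 for Etv4, and the Spry1 call was lost, where 60.2% of all genes were called. Dusp5 (-0.29), Dusp6 (-0.32) and Spry2 (-0.30) did not pass as deposited, and after centring they had the opposite sign (0.15, 0.12 and 0.13) and did not pass either. With median-ratio size factors these 3 were called higher in BMH-21 (0.25, 0.22 and 0.24), and the calls of Spry1 (0.07), Spred1 (-0.13) and Spred2 (-0.19) were lost.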

How the results depend on the processing

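Each of the 140 member differences (10 genes in 14 comparisons) was recomputed under each alternative, and none changed sign while past the threshold in both fits. The scaling mattered most: after centring 102 kept direction and side of the threshold, 6 lost the call, 19 gained it and 13 changed sign, and with median-ratio factors 104, 5, 16 and 15. No filter lost 2 calls, the 5-read offset 1, no trend 6, voom weights 1 (with 1 gained) and only the groups compared 1 (with 2 gained). After centring, members called became 7 at 2 h of BMH-21 and 5 for BMH-21 against CX-5461 at 2 h. With median-ratio factors they became 5 for that comparison, 7 for CX-5461 at 8 h and 8 for BMH-21 at 8 h against 4 h. Without a library they ran from 2 to 4 at 8 h of CX-5461 and from 1 to 4 for the inhibitors at 2 h. Genes called in all went from 2891 to 5285 (centred) and 5243 (median-ratio) at 2 h of BMH-21, from 585 to 2261 and 2208 for the inhibitors at 2 h, and from 2617 to 6719 and 6116 at 4 h. Sign changes after centring and with median-ratio factors, in that order, were 0.02 and 0.03 for Spred1 at 2 h of BMH-21, 0.13 and 0.17 for Etv4 at 4 h, 0.04 and 0.13 for Etv4 in CX-5461 at 4 h, and -0.18 and -0.08 for Etv5 in CX-5461 at 8 h. For Dusp5 between inhibitors at 8 h they were 0.04 and 0.09, and for Etv5 from 4 h to 8 h of BMH-21 0.03 and 0.15. From 4 h to 8 h of CX-5461 they were -0.21 and -0.20 for Dusp6 and -0.27 and -0.26 for Etv4. In the difference between inhibitors of that change they were 0.15 and 0.25 for Dusp5, 0.12 and 0.22 for Dusp6 and 0.13 and 0.24 for Spry2. Centring alone turned Spry2 (-0.06) and Spry4 (-0.02) at 8 h of CX-5461. Median-ratio factors alone turned Dusp5 at 4 h of CX-5461 (0.07), Spred2 between inhibitors at 8 h (0.02), Dusp6 from 4 h to 8 h of BMH-21 (0.02) and Spry1 in the difference of changes (0.07). Of 900 fits without a library, 832 kept direction and side, 32 lost a call, 17 gained one and 19 changed sign. These ran from -0.14 to 0.05 (Spred1) and -0.18 to 0.02 (Spred2) at 2 h of BMH-21, -0.08 to 0.04 (Etv4) at 4 h, and -0.05 to 0.05 (Etv4) for CX-5461 at 2 h. For CX-5461 at 8 h they ran from -0.06 to 0.02 (Etv4), -0.00 to 0.06 (Etv5) and -0.11 to 0.02 (Spry1), and for Etv5 between inhibitors at 4 h from -0.10 to 0.07. From 4 h to 8 h of BMH-21 they were -0.11 to 0.09 (Etv5) and -0.06 to 0.15 (Spred1), and from 2 h to 4 h of CX-5461 -0.02 to 0.13 (Dusp5). The cause of these changes was not tested.

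Same-numbered libraries did not deviate together (0 of 39 pairs correlated over 0.1, and 4 of 21 libraries were closest to their own number). With the replicate number as a block, 139 differences kept their call. The exception was Dusp5 at 4 h of BMH-21, which took members called there from 9 to 8. The depth (260 reads for a member at the least), the 3 libraries per group and the library factors of unstated origin limit the member values.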
